A study of Mus musculus with 28 samples.

Results

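The genes described here are the mouse UDP-glucuronosyltransferases (Ugt) and cytosolic sulfotransferases (Sult). All protein-coding genes whose symbol begins with Ugt1a, Ugt2a, Ugt3a or Ugt2b, or with Sult and a number, were taken. The symbol was looked up from the Ensembl ID. This gave 42 of the 54446 counted genes, of which 21 were Ugt genes (9 Ugt1a, 3 Ugt2a, 7 Ugt2b and 2 Ugt3a) and 21 were Sult genes (6 Sult1, 9 Sult2, 2 Sult3, 1 Sult4, 1 Sult5 and 2 Sult6). A further 6 matching pseudogenes were left out. The rule reads symbols only.

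The mice were 8-week-old C57BL/6 males (C57BL6J in the study's methods) that received water or nicotinamide mononucleotide (NMN), a precursor of NAD+, by gavage for 7 days. In the first schedule, mice were gavaged once per day at 1340 mg/kg/d, and 4 NMN-treated and 4 water mice were sequenced for each organ. In the second, mice were gavaged 2 times per day at 2680 mg/kg/d, with 3 NMN-treated and 3 water mice for each organ. Liver and kidney gave 28 polyA RNA-seq libraries with 12688324 to 33872983 reads counted in genes. The labels name no genetic change in any group, and the water mice of each schedule were its only controls. Dose and number of gavages changed together, so their effects cannot be told apart. The libraries of the schedules differed as well. Mitochondrial genes took 8.92 to 10.6% of the counted reads in the kidneys at 1340 mg/kg/d and 19.8 to 21.6% in those at 2680 mg/kg/d, and in liver 3.89 to 5.77% and 5.74 to 9.24%. The study used more than 1 sequencer, and the sources used here do not say which served which schedule. The labels do not say whether same-numbered livers and kidneys came from the same mouse. The deepest libraries were those of the NMN-treated kidneys at 2680 mg/kg/d (22922994 to 33872983 reads, against 16358886 to 18983689 in their controls).

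Glucuronosyltransferases join a sugar, for most members glucuronic acid from UDP-glucuronic acid, to bilirubin, steroids, thyroid hormones, bile acids and drugs in the endoplasmic reticulum. Sulfotransferases move a sulfate from PAPS (3'-phosphoadenosine 5'-phosphosulfate) to many of the same compounds in the cytosol. Both reactions make substrates more water soluble, and the conjugates leave the liver in bile or blood and the kidney in urine. The nuclear receptors CAR and PXR are known inducers of several of these genes in liver.

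The Ugt1a genes share exons, which limits what a read count can show. The 9 genes lie in 1 cluster at chr1:88055388-88220002 on the plus strand (GRCm38, used here for names and gene structure). Each has its own first exon, and all are spliced to 4 common exons (exon 2 at chr1:88215044-88215175, exon 3 at chr1:88215795-88215882, exon 4 at chr1:88216138-88216357 and exon 5 at chr1:88218127-88218997 in its most frequent form), which hold 1311 bases. The last exon ends at other bases in some of the transcripts. A read that lies wholly in these exons belongs to all 9 genes and was not counted for any. A read that crosses from a first exon into exon 2 could still be given to 1 gene. The junctions below show what such a read holds, with the last 30 bases of the first exon in lower case and the first 20 bases of the common exon 2 in capitals.
Ugt1a10: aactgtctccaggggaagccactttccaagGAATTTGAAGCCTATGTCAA
Ugt1a9: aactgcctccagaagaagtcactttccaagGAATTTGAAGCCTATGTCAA
Ugt1a8: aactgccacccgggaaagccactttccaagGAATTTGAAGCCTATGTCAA
Ugt1a7c: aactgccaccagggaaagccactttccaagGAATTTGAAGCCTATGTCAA
Ugt1a6b and Ugt1a6a: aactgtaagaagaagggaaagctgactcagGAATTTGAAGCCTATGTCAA
Ugt1a5 and Ugt1a2: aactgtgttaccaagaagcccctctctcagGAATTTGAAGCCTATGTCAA
Ugt1a1: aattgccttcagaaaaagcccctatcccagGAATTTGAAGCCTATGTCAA

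The junction letters were the same for Ugt1a6a and Ugt1a6b, and for Ugt1a5 and Ugt1a2, so reads over these bases alone do not tell such a pair apart. Across the whole first exon, the closest pair was Ugt1a6b and Ugt1a6a, with 95.1% identity, followed by Ugt1a10 and Ugt1a9 with 87.7%. Ugt1a1, the bilirubin glucuronosyltransferase, kept the smallest part of its exons for itself. Only 385 of its 2224 exon bases (17.3%) lay in no other gene, because its first exon (chr1:88211959-88212871) is overlapped by the antisense gene Gm20528. Gm20528 had 0 counts in all 28 libraries. Counting used no strand, so reads lying wholly in the overlap were lost to both genes. A read that also covered bases of Ugt1a1 alone could still be counted for it. The other 8 Ugt1a genes kept between 35.7% (Ugt1a10) and 49.7% (Ugt1a6a) of their exon bases. Within the Ugt2a genes, Ugt2a1 had 30 own bases and Ugt2a2 had 140, and neither had a count in any library. Across all genes, 2.2 to 5.8% of the uniquely aligned reads in a library were dropped as ambiguous. A further 1759651 to 9256132 alignments per library were set aside because they were not unique. The files do not say which genes either kind came from. Because reads in the shared exons were dropped, Ugt1a levels are compared with other genes only per kilobase of own exon.

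**Figure D1:**
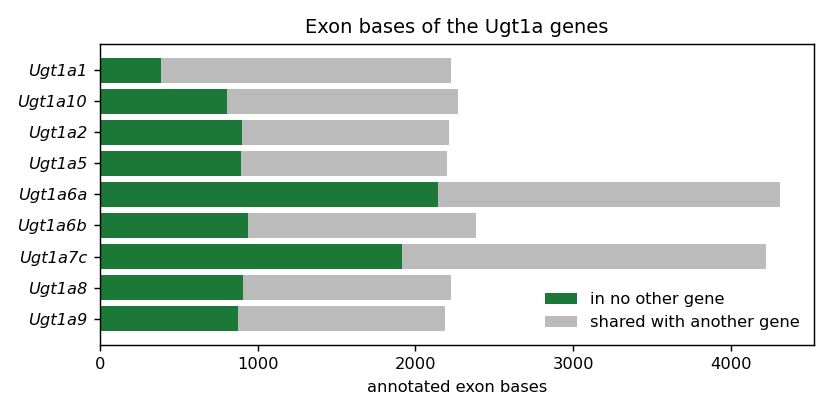
Annotated exon bases of the 9 Ugt1a genes (horizontal axis, bases), split into bases found in no other gene (green) and bases shared with another gene (grey). Ugt1a1 has the shortest green bar, 385 of 2224 bases.

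Repeated sequence matters outside this cluster as well. Of all windows of 50 bases along the transcripts, 41.7% in Ugt2b5 and 37.4% in Ugt2b38 were also found in another gene. For Ugt2b38, 34.1% were found in Ugt2b5. Values of these genes are uncertain to that extent. In Ugt2b37 the share was 18.3%, with 15.2% found in Ugt2b5. It was 7.60% in Ugt3a1, 7.36% in Sult1a1, 7.01% in Ugt3a2, 1.96% in Sult2a8, 0.723% in Sult1c2 and 0% in Sult1d1.

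Of the 42 genes, 32 had at least 1 count in a liver library, 31 had one in a kidney library and 8 had none anywhere (Sult1c1, Sult2a2, Sult2a4, Sult2a5, Sult2a6, Sult3a2, Ugt2a1 and Ugt2a2). A count of 0 allows up to 0.236 CPM (normalised read counts, scaled to a common library size) in the smallest library and 0.0886 CPM in the largest, by a limit of 3 reads that covers counting error only. A filter on low counts left 28 genes for at least 1 comparison of NMN with water, and 15 of them for all 4 comparisons. The other 14 were the 8 genes without counts, Sult2a1, Sult2a3, Sult3a1, Sult6b1, Sult6b2 and Ugt1a8, and none exceeded 0.755 CPM in any library.

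The first comparison asked in which organ each gene was expressed without NMN. In water mice, the liver carried mainly Ugt2b5, Ugt2b36, Ugt2b1, Sult2a8 and Sult1a1, whereas the kidney carried mainly Ugt2b38, Ugt3a2, Ugt1a7c, Ugt2b37 and Sult1d1. Liver and kidney libraries were normalised together for this comparison. At 1340 mg/kg/d, 23 of 24 tested genes differed between the organs (adjusted p under 0.05, edgeR), 15 being higher in liver and 8 in kidney. Among all genes, 66.9% differed (30.9% higher in liver and 36.1% in kidney). At 2680 mg/kg/d it was 24 of 26, with 16 higher in liver and 8 in kidney, where 70.5% of all genes differed (31% higher in liver and 39.5% in kidney). The organs differ in most of their genes, and the share of the Ugt and Sult genes is read against that background. The median of all genes lay 0.10 and 0.17 above 0 on the log2 scale of kidney over liver.

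Among the liver genes, Ugt2b5 had 1800, 1582, 1424 and 1575 CPM in the water mice of the first schedule and 1354, 1332 and 1486 CPM in those gavaged 2 times per day. The kidneys had 2.87 to 6.14 CPM, and the log2 difference of kidney over liver was -8.37 and -8.31. Ugt2b36 had 1070, 1213, 1001 and 1160 CPM, then 1028, 1132 and 1205 CPM in liver, and at most 0.718 CPM in kidney. Both belong to the Ugt2b genes, which conjugate steroids and drugs, and no kidney came near any liver for either gene. Ugt2b1 had 1646, 1146, 919 and 895 CPM in the liver of the first schedule and 1034, 864 and 1040 CPM in the second, with at most 0.702 CPM in kidney. The first water mouse was the highest of the 7. Ugt1a1 had 99.6, 145, 101 and 80.5 CPM, then 115, 149 and 173 CPM in liver, against 0.0894 to 0.496 CPM in kidney.

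Sult2a8, a bile acid sulfotransferase of mouse liver, had 1023 to 1335 CPM in the 7 livers and 0 to 1.20 CPM in the kidneys. Sult1a1, which conjugates phenols, had 380 to 559 CPM in liver and 10.1 to 18.1 CPM in kidney (log2 difference -5.12 and -5.33). The organs did not overlap for either gene.

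Of the kidney genes, Ugt2b38 had 886, 573, 552 and 705 CPM at 1340 mg/kg/d and 677, 578 and 616 CPM at 2680 mg/kg/d. The livers had 67.0, 19.5, 12.9 and 21.0 CPM, then 6.48, 7.67 and 9.92 CPM, so the liver level itself varied widely (log2 difference 4.50 and 6.28). Ugt1a7c had 137 to 191 CPM in kidney and at most 1.45 CPM in liver, and Ugt2b37 had 138 to 197 CPM against at most 8.40 CPM. Sult1c2 had 41.5 to 52.7 CPM in kidney and 0.982 to 12.8 CPM in liver. None of these 4 genes had overlapping organs.

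Ugt3a2, Ugt3a1 and Sult1d1 were high in both organs. The Ugt3a enzymes are known to use other sugars than glucuronic acid, and Sult1d1 conjugates catecholamines. Ugt3a2 had 771 to 1022 CPM in kidney and 476 to 535 CPM in liver (log2 difference 0.92 and 0.80). Sult1d1 had 360 to 528 CPM in kidney and 130 to 236 CPM in liver (1.42 and 1.39). Ugt3a1 had 52.4 to 144 CPM in kidney and 43.6 to 66.5 CPM in liver. Its difference passed at 1340 mg/kg/d (1.00, adjusted p = 0.000105, edgeR) and not at 2680 mg/kg/d (0.48, adjusted p = 0.0617, edgeR), where it passed with upper quartile scaling. Sult4a1, tested at 1340 mg/kg/d, and Ugt1a10 at 2680 mg/kg/d (0.92, adjusted p = 0.0911, edgeR) were the other genes that did not pass.

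Per kilobase of own exon, the order in the water livers was Ugt2b5 (600 CPM per kb), Ugt2b36 (401), Ugt2b1 (310) and Ugt1a1 (238) for the Ugt genes, and Sult2a8 (262), Sult1a1 (245) and Sult1d1 (49.5) for the Sult genes. In the water kidneys it was Ugt2b38 (482 CPM per kb), Ugt3a2 (417), Ugt1a7c (122) and Ugt2b37 (120), then Sult1d1 (248), Sult1c2 (34.8) and Sult1a1 (12.4). These levels were normalised within each organ. Within the Ugt1a cluster, 1 gene led in each organ on the per-kilobase scale. Ugt1a1 took 78.3% in liver, ahead of Ugt1a6b (8.80%), Ugt1a9 (6.13%) and Ugt1a5 (5.42%). That share divides the Ugt1a1 counts by its 385 own bases, although its first exon has 913. Reads that reached past the own bases could still be counted, so its level per kilobase and its share may be too high. Ugt1a7c took 92.7% in kidney, ahead of Ugt1a10 (2.56%), and Ugt1a1 took 0.753% there. Of the 1915 own bases of Ugt1a7c, 998 lie after the shared exons. A read that lies wholly there is counted for Ugt1a7c but does not show which first exon its transcript had.

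**Figure D2:**
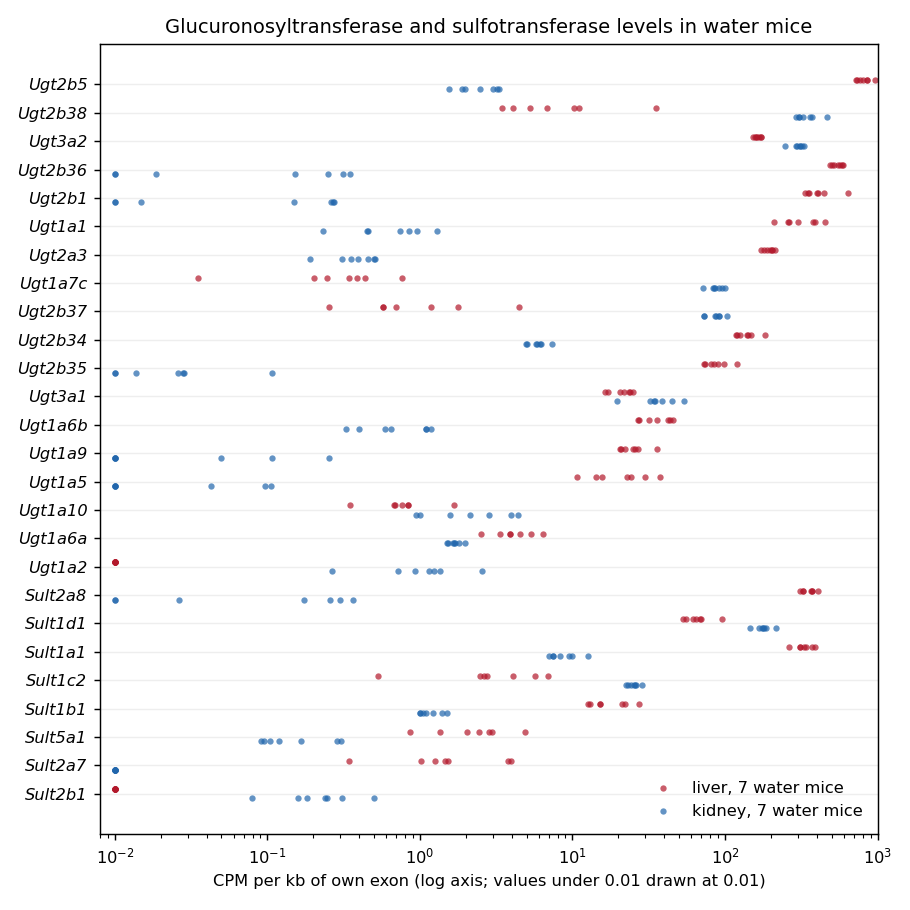
Level of each gene with a mean over 1 CPM in either organ, in the 7 water mice of liver (red) and kidney (blue), as CPM per kilobase of own exon on a log axis, with both organs normalised together. Each point is 1 library, and values under 0.01 are drawn at 0.01. Ugt3a2, Ugt3a1 and Sult1d1 are high in both organs. For Ugt2b36, Ugt2b1 and Sult2a8, the kidneys at 2680 mg/kg/d are near the left edge (at most 0.0263 CPM per kb). Those at 1340 mg/kg/d lie at 0.149 to 0.366 CPM per kb.

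The organ labels were checked against defining markers. The shares in this paragraph divide CPM normalised within each organ, not with both organs together as above. With both together, kidney values are lower and liver values higher. At 1340 mg/kg/d, mean Sult2a8 was then 0.902 CPM in kidney and 1204 CPM in liver, against 1.26 and 871 CPM within each organ. Among water mice at 1340 mg/kg/d, the kidney gene Slc34a1 stood in liver at 0.127% of its kidney level, and the liver gene Alb stood in kidney at 0.117% of its liver level. In the second schedule these shares were 0.0135% and 0.00875%. Sult2a8 in kidney was at 0.145% of its liver level at 1340 mg/kg/d and 0.00473% at 2680 mg/kg/d, and Ugt2b36 was at 0.0952% and 0.00204%. Ugt2b5 was at 0.582% and 0.570%, and Ugt1a1 at 0.486% and 0.348%. The part of the other organ's RNA in these low values was not tested.

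In the livers of mice gavaged 2 times per day, 1 gene was up-regulated by NMN (Sult2a8) and 3 were down-regulated (Ugt2b38, Sult1c2 and Ugt3a1). These 4 were called among 23 tested genes. Among all 12477 tested genes 883 were called (7.08%), 380 up (3.05%) and 503 down (4.03%). At an unadjusted p under 0.05 there were 8 of the 23, against 24.6% of all genes. With an adjusted p under 0.01 and over 2-fold change there was none, against 1.08% of all genes. The median log2 fold change was 0.07 for the 23 genes and 0.00 for all genes.

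Sult2a8 (chr7:14410686-14446769, minus strand) had 780, 817 and 939 CPM in the water mice and 1546, 1396 and 1653 CPM in the NMN-treated mice. Every NMN-treated mouse was above every water mouse. The mean rose from 845 ± 83.1 to 1532 ± 129 CPM (SD, n = 3 each), which is 1.81-fold (log2 fold change 0.86, SE 0.13, adjusted p = 0.00598, edgeR).

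Ugt2b38 (chr5:87409942-87424203, minus strand), the Ugt gene with the highest mean per kilobase in the water kidneys, was low in these livers. It had 4.95, 5.86 and 7.58 CPM with water and 1.97, 0.574 and 0.421 CPM with NMN, from 96, 114 and 128 counts against 40, 12 and 8. The groups did not overlap (log2 fold change -2.62, SE 0.51, adjusted p = 0.0157, edgeR). Leaving out 1 library gave a log2 fold change of -3.60 (without NMN replicate 1, the highest of the 3) to -2.26. The call was kept in 3 of these 6 fits, with adjusted p up to 0.0624 (edgeR). Since part of its sequence is shared with Ugt2b5, which stood over 1000 CPM in the same livers, these few counts are uncertain.

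Sult1c2 (chr17:53829637-53846339, minus strand) was also mainly a kidney gene. Its liver values were 3.71, 9.77 and 8.06 CPM with water and 1.97, 1.53 and 2.79 CPM with NMN, without overlap (log2 fold change -1.77, SE 0.39, adjusted p = 0.0237, edgeR). The counts behind them were 72, 190 and 136 against 40, 32 and 53.

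Ugt3a1 (chr15:9276888-9315032, plus strand) is expressed in both organs. It had 33.2, 44.5 and 48.3 CPM in the water livers and 22.8, 16.7 and 24.0 CPM in the NMN-treated livers. All 3 NMN-treated mice were below the lowest control (1.99-fold lower, log2 fold change -0.99, SE 0.20, adjusted p = 0.0161, edgeR).

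Sult2a8 passed without any 1 of the 6 livers. Without water replicate 2 or 3 it was the 1 gene of the families that passed, where 211 and 492 of all genes passed in place of 883. Without NMN replicate 3, 2 genes of the families passed (Sult2a8 and Ugt3a1) among 237 of all genes. Without NMN replicate 1 or 2 it was 6, among 717 and 1308, and without water replicate 1 it was 4, among 314. NMN replicate 1 was also the liver with the most kidney RNA in the second schedule, with 4.88 CPM of Slc34a1. That was 0.1% of the kidney level, with each organ normalised on its own. Without it, all 4 genes passed, with Ugt2b1 and Ugt1a9 as the others.

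**Figure D3:**
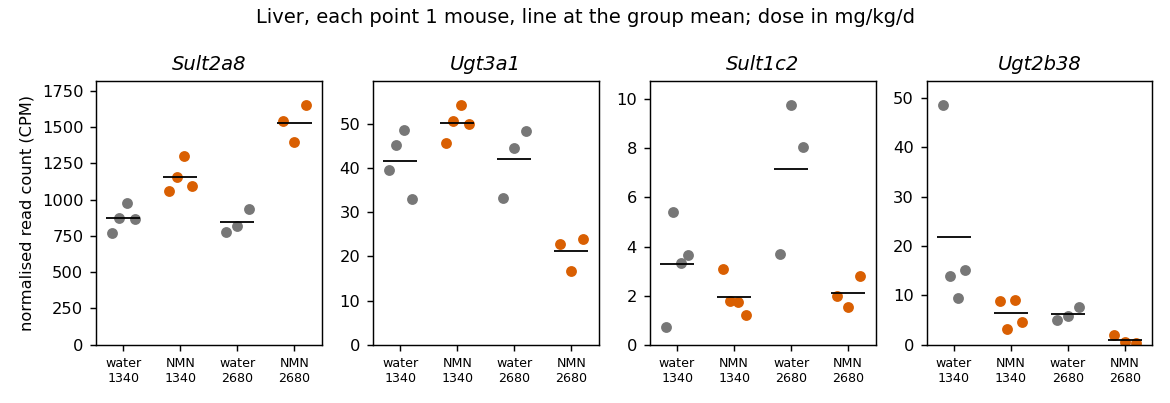
Normalised read counts (CPM, linear axes from 0) of Sult2a8, Ugt3a1, Sult1c2 and Ugt2b38 in each liver, by schedule (1340 and 2680 mg/kg/d) and treatment. Points are mice and lines are group means. At 2680 mg/kg/d the NMN points of Sult2a8 lie at 1396 CPM and above, over all water points, and those of the other 3 genes lie below all water points.

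None of the abundant liver glucuronosyltransferases passed the test at 2680 mg/kg/d. Ugt2b5 had 1033, 1018 and 1136 CPM with water and 1034, 1101 and 1213 CPM with NMN. Ugt2b36 had 784, 865 and 921 CPM against 808, 796 and 976 CPM. The groups of both genes overlapped. Ugt2b1 had 789, 660 and 795 CPM with water and 697, 398 and 466 CPM with NMN, so the highest NMN-treated mouse overlapped the controls (log2 fold change -0.52, adjusted p = 0.134, edgeR). Ugt3a2 had 363, 374 and 397 CPM against 276, 296 and 350 CPM, which did not overlap but did not pass (log2 fold change -0.30, adjusted p = 0.209, edgeR). Ugt1a1 had 88.0, 114 and 133 CPM against 119, 109 and 177 CPM, and its groups overlapped. Of the sulfotransferases, Sult1a1 had 427, 409 and 363 CPM against 506, 526 and 412 CPM, with overlap. Sult1d1 had 104, 129 and 116 CPM against 169, 116 and 194 CPM (log2 fold change 0.46, adjusted p = 0.166, edgeR). In all, 7 of the 23 genes had groups that did not overlap, where 29.8% of all genes did. Of these, Ugt2a3 (log2 fold change 0.35, adjusted p = 0.166, edgeR) and the low Ugt2b37 were the remaining ones.

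Markers of the liver's own cells moved in the same comparison. The 7 hepatocyte markers together stood at 146870 to 163933 CPM in water mice and at 113298 to 124973 CPM in NMN-treated mice at 2680 mg/kg/d. Alb, the most abundant, stood at 116771 to 127913 CPM and 86359 to 100454 CPM. Of the 7 markers, Ttr and Serpina1c fell and none rose, where 4.03% of all genes fell and 3.05% rose. Of the uniquely aligned reads, those that fit no annotated gene made up 3.80 to 4.22% in the water livers and 4.54 to 5.91% in the NMN-treated livers, without overlap. Mitochondrial genes took 5.74 to 7.37% and 7.04 to 9.24% of the counted reads. Of 9 genes of the zone around the central vein, 4 fell (among them Lect2, Oat and Glul) and none rose, and of 9 periportal genes 1 rose (Hsd17b13). Their part in the results was not tested. In bulk tissue, fewer cells of a type and less RNA per cell cannot be told apart.

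The livers of mice gavaged once per day showed none of the 24 tested genes past the threshold, where 2 of 12449 genes passed (0.0161%). At an unadjusted p under 0.05 there were 5 of the 24, against 6.86% of all genes, and the DESeq2 test called none. The median log2 fold change was 0.04, against 0.00 for all genes. Sult2a8 had 769, 873, 976 and 866 CPM with water and 1063, 1155, 1303 and 1098 CPM with NMN. Every NMN-treated mouse was again above every control (log2 fold change 0.41, SE 0.13, adjusted p = 0.462, edgeR). Ugt2b38 had 48.6, 13.9, 9.41 and 15.1 CPM with water and 8.94, 3.26, 8.99 and 4.68 CPM with NMN, where the first water mouse stood far above the rest (log2 fold change -1.75, SE 0.59, adjusted p = 0.598, edgeR). Without that mouse the log2 fold change was -0.99. Ugt2b1 had 1194, 821, 672 and 645 CPM against 642, 484, 531 and 474 CPM (log2 fold change -0.64, adjusted p = 0.446, edgeR). These were the 3 genes without overlap, where 3.53% of all genes had none.

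Ugt1a1 had 72.2, 104, 73.8 and 58.0 CPM in the water livers of this schedule and 101, 97.1, 126 and 129 CPM in the NMN-treated livers. Only the highest control reached into the NMN-treated range (log2 fold change 0.56, SE 0.18, adjusted p = 0.478, edgeR). Sult1c2 had 0.712, 5.40, 3.32 and 3.65 CPM against 3.08, 1.78, 1.73 and 1.21 CPM, which overlapped (log2 fold change -0.75, adjusted p = 0.827, edgeR). For Sult5a1 the log2 fold change was -1.20 (adjusted p = 0.494, edgeR). The abundant genes had overlapping groups. Ugt2b5 had 1306, 1133, 1041 and 1135 CPM with water and 1230, 1192, 937 and 917 CPM with NMN. Ugt2b36 had 776, 868, 732 and 835 CPM against 844, 887, 671 and 698 CPM. Of the genes high in both organs, Ugt3a2 had 387, 383, 368 and 358 CPM against 384, 391, 384 and 369 CPM. Overlap was also seen for both sulfotransferases. Sult1a1 had 276, 323, 327 and 354 CPM against 372, 406, 274 and 269 CPM, and Sult1d1 had 94.1, 114, 172 and 123 CPM against 99.3, 131, 87.7 and 171 CPM.

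Among these 8 livers, NMN replicate 4 stood apart in library quality. There 14.4% of the uniquely aligned reads fit no gene and 5.75% were ambiguous, where the other 7 livers had at most 8.27% and 4.04%. Without it, the log2 fold change of Sult2a8 was 0.43. The 7 hepatocyte markers together stood at 98567 to 123128 CPM with water and 90050 to 122690 CPM with NMN. The endothelial markers stood at 58.7 to 88.4 CPM and 89.4 to 97.0 CPM, without overlap, and none of the 6 tested passed. Their most abundant gene was Stab2. Their part in the results was not tested.

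Whether NMN acted differently in the schedules was tested directly, as the NMN difference at 2680 minus that at 1340 mg/kg/d. In liver none of 25 tested genes passed, where 10 of 13412 genes did (0.0746%), and 2 of the 25 had an unadjusted p under 0.05, against 8.6% of all genes. Ugt3a1 came closest. It had 39.6, 45.2, 48.7 and 33.1 CPM with water and 45.8, 50.7, 54.3 and 49.9 CPM with NMN at 1340 mg/kg/d (log2 fold change 0.27, SE 0.14), opposite in sign to the second schedule. The difference was -1.25 (SE 0.24, adjusted p = 0.0621, edgeR), and the adjusted p was 0.0282 with upper quartile scaling and 0.00133 with DESeq2. The difference of Sult2a8 was 0.46 (SE 0.17, adjusted p = 0.442, edgeR), that of Ugt2b38 was -0.86 (SE 0.90) and that of Sult1c2 was -1.01 (SE 0.69).

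The promoters of the called genes were read from RefSeq (GRCm38.p6, 250 bases before the start to 50 after), which held an entry for 36 of the 42 genes. They were searched on both strands for AGGTCA, the core of many nuclear receptor sites, for GTTAAT, a core of HNF1 sites, for GCGTG, the core of the aryl hydrocarbon receptor site, and for TGACNNNGC, the core of the NRF2 site. Read on the other strand, AGGTCA begins with TGAC and can overlap TGACNNNGC, but each stretch shown held 1 of the motifs only. Of all 32851 promoters, 16.3% held AGGTCA, 7.10% held GTTAAT, 32.4% held GCGTG and 12.4% held TGACNNNGC. At least 1 of the motifs was held by 54.4% of them. That share counts promoters, whereas the next count is of genes, with any listed promoter of a gene taken. Among the 5 called genes, 4 had a match in a listed promoter, where Sult2a8 has 2 listed, shown in capitals as it reads on the gene's strand (ATTAAC is GTTAAT on the other strand). They lie at chr7:14438502-14438801 (Sult2a8, the second of its listed starts), chr5:87424154-87424453 (Ugt2b38), chr15:9279579-9279878 (Ugt3a1) and chr1:88211709-88212008 (Ugt1a1, called in kidney below).
Sult2a8: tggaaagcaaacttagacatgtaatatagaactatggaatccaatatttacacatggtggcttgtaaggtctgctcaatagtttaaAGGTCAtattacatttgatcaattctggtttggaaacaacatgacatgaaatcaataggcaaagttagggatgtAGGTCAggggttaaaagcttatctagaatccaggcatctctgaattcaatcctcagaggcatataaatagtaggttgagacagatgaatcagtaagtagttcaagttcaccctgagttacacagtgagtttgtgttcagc
Ugt2b38: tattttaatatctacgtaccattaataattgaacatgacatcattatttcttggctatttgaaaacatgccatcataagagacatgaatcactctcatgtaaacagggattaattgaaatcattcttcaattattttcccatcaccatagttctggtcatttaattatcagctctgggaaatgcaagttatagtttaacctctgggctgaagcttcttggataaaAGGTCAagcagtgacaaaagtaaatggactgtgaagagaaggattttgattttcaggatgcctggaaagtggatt
Ugt3a1: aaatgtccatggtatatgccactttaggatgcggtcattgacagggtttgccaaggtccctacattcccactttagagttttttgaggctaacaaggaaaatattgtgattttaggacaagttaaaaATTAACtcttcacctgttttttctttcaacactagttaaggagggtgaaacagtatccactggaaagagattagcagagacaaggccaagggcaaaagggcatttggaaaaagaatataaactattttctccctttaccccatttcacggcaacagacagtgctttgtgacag
Ugt1a1: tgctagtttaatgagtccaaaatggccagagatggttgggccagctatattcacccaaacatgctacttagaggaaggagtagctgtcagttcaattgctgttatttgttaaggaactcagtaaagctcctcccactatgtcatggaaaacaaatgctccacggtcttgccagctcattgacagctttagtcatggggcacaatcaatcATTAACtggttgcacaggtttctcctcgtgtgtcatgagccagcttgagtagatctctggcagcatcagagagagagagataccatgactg

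The first listed start of Sult2a8 and the promoter of Sult1c2 held none of these letters. A match is a description of the sequence only.

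In the kidneys of mice gavaged once per day, Ugt1a1 was up-regulated by NMN from a very low level, and it was the 1 gene called among 23 tested. Among all 14972 tested genes 18 were called (0.12%), of which 10 were up (0.0668%). At an unadjusted p under 0.05 there were 6 of the 23, against 8.94% of all genes. With an adjusted p under 0.01 and over 2-fold change there was none, against 0.0134% of all genes. The median log2 fold change was -0.02 for the 23 genes and 0.00 for all. Ugt1a1 had 0.401, 0.126, 0.456 and 0.514 CPM with water and 1.43, 7.10, 1.71 and 5.47 CPM with NMN, from 6, 2, 7 and 8 counts against 19, 96, 24 and 78. The groups did not overlap, and the NMN-treated mice differed widely among themselves (log2 fold change 3.37, SE 0.58, adjusted p = 0.0393, edgeR). The call was lost without any 1 of the water mice or without NMN replicate 2, with adjusted p up to 0.140 (edgeR). It was also lost without robust fitting (adjusted p = 0.0611, edgeR), with all 14 kidney libraries in one fit (adjusted p = 0.174, edgeR) and with at least 10 counts required in every library, where Ugt1a1 was not tested.

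The other Ugt1a genes with NMN-treated kidneys above most controls were Ugt1a10 and Ugt1a2. Ugt1a10 had 1.14, 5.03, 4.43 and 3.21 CPM with water and 5.21, 12.5, 8.70 and 7.72 CPM with NMN, with no overlap (log2 fold change 1.30, SE 0.37, adjusted p = 0.263, edgeR). It passed with DESeq2 (adjusted p = 0.0250), without a filter (adjusted p = 2.34e-05, edgeR) and with the replicate block (adjusted p = 0.0245, edgeR). Ugt1a2 had 0.334, 1.57, 3.19 and 0.899 CPM against 3.32, 7.03, 3.21 and 1.61 CPM (log2 fold change 1.33, adjusted p = 0.542, edgeR), and passed without a filter (adjusted p = 0.0138, edgeR). Ugt1a7c, the main Ugt1a gene of kidney, had 224, 231, 243 and 190 CPM against 265, 278, 193 and 255 CPM, and its groups overlapped. At 2680 mg/kg/d it had 222, 254 and 265 CPM against 220, 297 and 324 CPM, again with overlap. Ugt1a1 and Ugt1a10 were the 2 genes without overlap, where 5.12% of all genes had none. Alb, the liver marker, stood at 88.6 CPM on average in the water kidneys of this schedule and at 102 CPM in the NMN-treated kidneys. Its part in the Ugt1a1 values was not tested.

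In the kidneys of mice gavaged 2 times per day, none of 19 tested genes passed, where 61 of 15245 genes did (0.4%). At an unadjusted p under 0.05 there were 5 of the 19, against 11.1% of all genes, and DESeq2 called 2 (Sult1c2 and Ugt1a2). The median log2 fold change was 0.10, against 0.00 for all genes. Sult1c2 came closest, with 64.4, 66.3 and 73.2 CPM with water and 54.3, 41.2 and 44.0 CPM with NMN. All NMN-treated mice were lower (log2 fold change -0.55, SE 0.11, adjusted p = 0.0514, edgeR). It passed with DESeq2 (adjusted p = 0.0018), with the replicate block (adjusted p = 0.0375, edgeR), with counts thinned to the smallest library (adjusted p = 0.0335, edgeR) and without NMN replicate 1 (adjusted p = 0.00376, edgeR). At 1340 mg/kg/d the groups overlapped, with 62.7, 58.4, 66.1 and 59.1 CPM against 72.1, 53.5, 67.0 and 41.8 CPM.

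Ugt1a1 had 0.683, 0.241 and 0.240 CPM in the water kidneys of this schedule and 0.799, 1.01 and 7.38 CPM in the NMN-treated kidneys, so 1 mouse carried most of the difference (log2 fold change 2.98, SE 1.28, adjusted p = 0.489, edgeR). Ugt1a2 had 1.16, 1.69 and 1.44 CPM against 2.73, 6.53 and 14.4 CPM (log2 fold change 2.49, SE 0.71, adjusted p = 0.315, edgeR). It passed with the replicate block (adjusted p = 0.0223, edgeR), without NMN replicate 1 (log2 fold change 2.89, adjusted p = 0.00447, edgeR) and with DESeq2 (adjusted p = 0.0298). Neither gene's groups overlapped. Sult1a1 had 19.0, 19.9 and 15.0 CPM against 21.5, 23.6 and 27.9 CPM (log2 fold change 0.44, adjusted p = 0.218, edgeR), and the log2 fold change of Ugt2b5 was -0.78 (adjusted p = 0.281, edgeR). With Sult1c2 these made 5 of 19 genes without overlap, where 17.2% of all genes had none. At 1340 mg/kg/d, Sult1a1 had 15.0, 16.9, 14.1 and 25.2 CPM against 22.6, 25.5, 23.7 and 23.2 CPM, where 1 control overlapped.

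**Figure D4:**
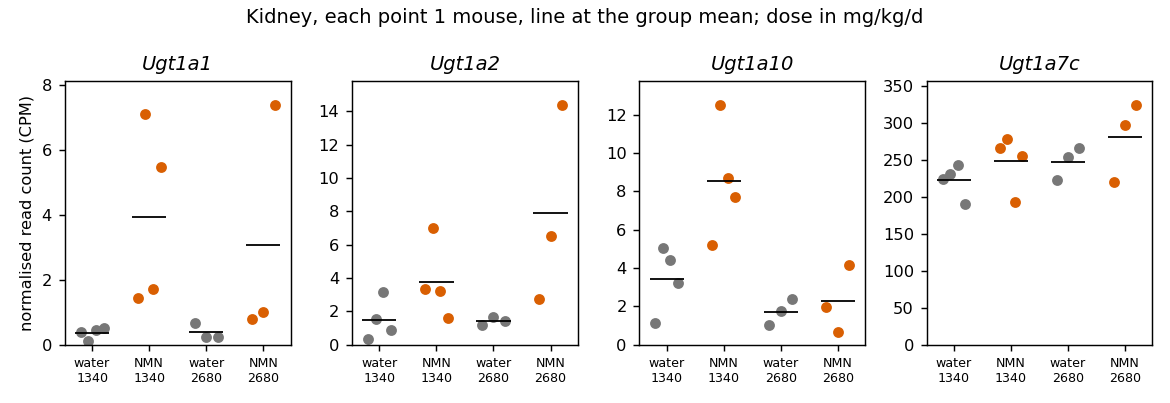
Normalised read counts (CPM, linear axes from 0) of Ugt1a1, Ugt1a2, Ugt1a10 and Ugt1a7c in each kidney, by schedule (1340 and 2680 mg/kg/d) and treatment. Points are mice and lines are group means. Ugt1a1 reaches 7.10 CPM in 1 NMN-treated mouse at 1340 mg/kg/d and 7.38 CPM in 1 at 2680 mg/kg/d, while all water mice stay under 1 CPM.

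Ugt2b38, Ugt3a2, Sult1d1 and Ugt3a1 had overlapping kidney groups in both schedules. Ugt2b38 had 1237, 807, 768 and 980 CPM with water and 930, 520, 701 and 661 CPM with NMN at 1340 mg/kg/d (log2 fold change -0.43, adjusted p = 0.548, edgeR), and 932, 797 and 854 CPM against 583, 1062 and 752 CPM at 2680 mg/kg/d. Ugt3a2 had 1428, 1387, 1341 and 1332 CPM against 1494, 1361, 1103 and 1445 CPM, then 1061, 1242 and 1273 CPM against 1232, 1275 and 1081 CPM. Its neighbour Ugt3a1 varied more between mice. It had 168, 202, 143 and 128 CPM against 173, 152, 81.2 and 144 CPM, then 72.2, 126 and 120 CPM against 158, 106 and 97.3 CPM. Sult1d1 had 620, 638, 609 and 734 CPM against 662, 700, 592 and 872 CPM, then 592, 568 and 499 CPM against 637, 671 and 561 CPM. For the difference between schedules in kidney, none of 23 genes passed, where 1 of 15989 did (0.00625%). At an unadjusted p under 0.05 there was 1 of the 23 (Sult1c2, difference -0.48, SE 0.20), against 4.62% of all genes, and DESeq2 called none.

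Markers of kidney cells were summed as well. None of 7 proximal tubule and 2 thick ascending limb markers passed at 1340 mg/kg/d, where 0.12% of all genes did. At 2680 mg/kg/d, 1 of the 7 and neither of the 2 passed, where 0.4% of all genes did. The 7 proximal tubule markers together stood at 16392 to 17874 CPM with water and 13907 to 15112 CPM with NMN at 1340 mg/kg/d, and at 13445 to 14514 CPM against 10096 to 12786 CPM at 2680 mg/kg/d. Slc34a1 was the most abundant in both, and Miox fell at 2680 mg/kg/d (log2 fold change -0.82, adjusted p = 0.0121, edgeR). The thick ascending limb markers stood at 2707 to 3338 CPM with water and 3588 to 4039 CPM with NMN at 1340 mg/kg/d, and at 1967 to 2554 CPM against 2327 to 2714 CPM at 2680 mg/kg/d, which overlapped. Their part in the results was not tested.

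**Figure D5:**
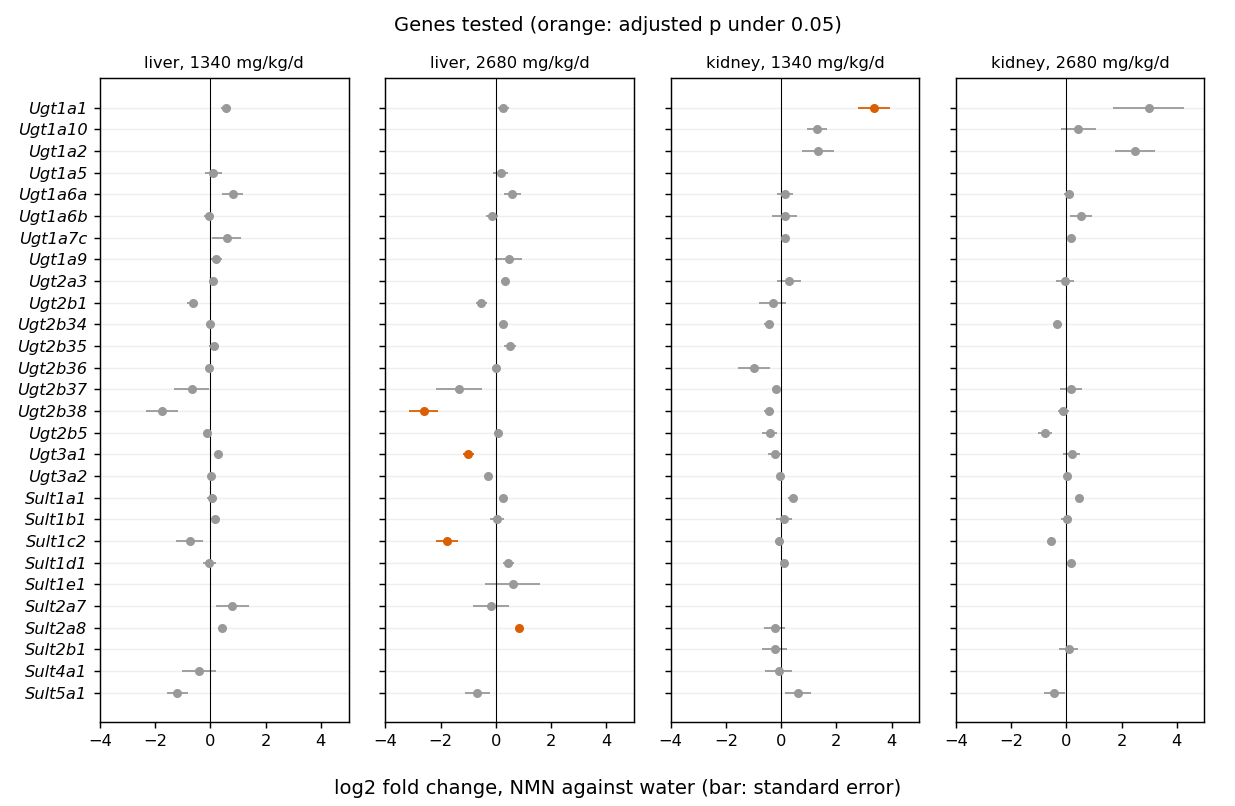
Log2 fold change of NMN over water with its standard error (lines) for the tested genes, in each organ and schedule, with genes of an adjusted p under 0.05 in orange. In liver at 2680 mg/kg/d Sult2a8 is at 0.86 and Ugt2b38 at -2.62, and in kidney at 1340 mg/kg/d Ugt1a1 is at 3.37.

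Genes that work with these enzymes were counted in lists by function. The counts are read against the share of all genes called in the same comparison, which was 3.05% up and 4.03% down in liver at 2680 mg/kg/d, and 0.4% in either direction in kidney at 2680 mg/kg/d. In the liver at 2680 mg/kg/d, 18 genes of cofactor supply were tested. Of these 1 rose and 5 fell (median log2 fold change -0.11). Ugdh, which makes UDP-glucuronic acid, rose from 89.8 to 147 CPM in water mice to 290 to 441 CPM in NMN-treated mice (log2 fold change 1.51, adjusted p = 0.00404, edgeR). Mpst (-0.82) and Tst (-0.77), enzymes of sulfur metabolism, were among those that fell. Of the 18 tested genes, 8 had a positive and 10 a negative log2 fold change, whether or not they passed.

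Among 16 genes of deconjugation and conjugate transport, 2 rose and 1 fell (median 0.03). The exporters Abcc3 (119 to 191 CPM, then 242 to 459 CPM, log2 fold change 1.14, adjusted p = 0.0245, edgeR) and Abcc2 (246 to 346 CPM, then 379 to 628 CPM, 0.82, adjusted p = 0.0345, edgeR) rose. The uptake carrier Slco1a1 fell (-1.03, adjusted p = 0.0161, edgeR). Of 24 regulators, 1 rose and 2 fell (median 0.15). Nr1i3, which encodes CAR, rose from 47.2 to 58.6 CPM to 116 to 157 CPM (log2 fold change 1.38, adjusted p = 0.00141, edgeR), and Cebpa (-0.59) was among those that fell.

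Of 20 xenobiotic receptor targets outside the families, 4 rose and 3 fell (median 0.39). Cyp3a11, a drug-metabolising P450 and a PXR target, fell (log2 fold change -1.04, adjusted p = 0.00317, edgeR), as did the carboxylesterase Ces2a (-0.84), whereas the glutathione transferase Gstm1 rose (0.91). Of 16 other conjugation and hydrolysis enzymes, 1 rose (Ephx1, epoxide hydrolase, 1.29, adjusted p = 0.0152, edgeR) and 1 fell (Ces3a, -0.85, adjusted p = 0.00618, edgeR). The list's median was -0.17.

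Genes known to differ between male and female liver were counted next. Of 17 male-biased genes 6 fell and none rose (median -0.66), among them Hsd3b5 (-2.18), Nudt7 (-1.34) and Cyp2d40 (-1.82). Of 11 female-biased genes 3 fell and none rose (median -0.77). These were Cyp2c69, with 5.30 to 6.80 CPM in water mice and 0 to 0.0526 CPM in NMN-treated mice, Prlr (-1.27, adjusted p = 0.00278, edgeR) and Cyp2c40 (-5.29, adjusted p = 0.00539, edgeR). Of 12 genes of thyroid hormone and steroid substrates 3 fell (Ttr, the thyroxine carrier, -0.97, Hsd3b3, -0.67, and Hsd17b2, -0.71) and none rose (median -0.19). Of 12 genes of bilirubin and haem 1 fell (Alad, of haem synthesis, -1.11, adjusted p = 0.0133, edgeR) and none rose (median -0.16).

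In the liver at 1340 mg/kg/d no gene of these 9 lists passed. The gene with the smallest p in each list was Ugdh (log2 fold change 0.37), Abcc3 (0.76, adjusted p = 0.0801, edgeR), Hnf4a (0.68), Cyp4a10 (2.89, adjusted p = 0.0923, edgeR), Ces1d (0.62), Nudt7 (-0.64), Cyp17a1 (-1.30), Ttr (-0.43) and Alad (-0.34). In the kidney at 1340 mg/kg/d none passed either, and genes with the smallest p in their list included Cdo1 (0.36), Abcc4 (0.68), Nr1h4 (0.63), Nqo1 (0.42), Cyp4a12a (-1.71), Cyp2c69 (-0.99), Hsd3b2 (-0.66) and Alad (-0.23).

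In the kidney at 2680 mg/kg/d, Cdo1, which makes cysteine sulfinic acid on the path from cysteine to sulfate and taurine, rose from 207 to 219 CPM to 290 to 335 CPM (log2 fold change 0.53, adjusted p = 0.0229, edgeR). It was the 1 gene of 20 in cofactor supply that passed. Of 11 male-biased liver genes, Cyp2d9 rose (0.73, adjusted p = 0.0122, edgeR). Of 12 female-biased genes Hao2 fell (-1.31, adjusted p = 9.34e-05, edgeR), and of 12 steroid and thyroid genes the steroid enzyme Hsd3b2 fell (-0.63, adjusted p = 0.0452, edgeR). None passed in the other 5 lists. The log2 fold change of Abcc4, a conjugate exporter, was 1.07 (adjusted p = 0.130, edgeR), and that of Nqo1, an NRF2 target, was 0.61 (adjusted p = 0.0544, edgeR). The smallest p in the 3 remaining lists belonged to Ppara (0.54), As3mt (-0.28) and Alad (-0.37).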

How the data were processed

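RNA was selected by polyA, and the deposited files hold raw counts per Ensembl gene and library. As the study's methods state, the authors aligned reads with STAR and counted them with HTSeq-count in the intersection-strict mode without strand, which drops reads that fit several genes as ambiguous (2.2 to 5.8% of the uniquely aligned reads) and sets aside alignments that are not unique. The build named there could not be matched to a known mouse build, so GENCODE gene models of GRCm38 gave names, exons and coordinates. No sample was pooled.

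From the counts, CPM were computed with TMM normalisation within an organ and schedule. For the comparison between organs, the water livers and kidneys of a schedule were normalised together instead. The same library therefore has another value there. Ugt2b5 in the first water liver at 1340 mg/kg/d had 1800 CPM with both organs together and 1306 CPM within liver. NMN was compared with water by edgeR 4.0.16 (R 4.3.3) in its quasi-likelihood test with robust fitting after filterByExpr, and p-values were adjusted by Benjamini-Hochberg over all tested genes, with a threshold of 0.05. DESeq2 1.42.0, other scalings and filters, the replicate block, thinned counts and leaving out each library were the alternatives. The scripts were tested on simulated data. Rows for unassigned reads were left out. Each p-value sets a group difference against the variation between these samples, which is estimated for each gene with information from all genes.

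Each gene called with NMN or between schedules was described with every value in the organs where it is discussed, as were the 3 Ugt and 3 Sult genes highest per kilobase in the water mice of each organ, except that low values in the other organ are given as ranges. Of each list, up to 3 passing genes were named, or the 1 with the smallest p; some of these are not reported here. Although the rule reads symbols only, these families, the lists and the tests were chosen with earlier results of these data known.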

Additional observations from a re-analysis of the deposited data

Results flagged for a closer look

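In 2 of 48 groups of 4 mice, 1 library stood apart from the other 3 by Dixon's criterion, which chance alone meets in about 1 group in 20. Ugt2b38 in the first water liver at 1340 mg/kg/d stood at 48.6 CPM, where the next was 15.1 CPM. Ugt2b1 in the first water kidney at 1340 mg/kg/d stood at 0.535 CPM, where the others had 0.944 CPM or more.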

How the results depend on the processing

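Among the genes of the families, the count called in liver at 1340 mg/kg/d was 0 and became 5 at an unadjusted p. In liver at 2680 mg/kg/d, 4 became 8 at an unadjusted p, 6 without a filter, 3 with at least 10 counts in every library (without Ugt2b38) and 0 with an adjusted p under 0.01 and over 2-fold change. In kidney at 1340 mg/kg/d, 1 became 2 with DESeq2, 4 without a filter, 0 with at least 10 counts in every library, 0 without robust fitting, 2 with the replicate block, 6 at an unadjusted p, 0 with the stricter threshold and 0 with all 14 libraries in one fit. In kidney at 2680 mg/kg/d, 0 became 2 with DESeq2, 3 without a filter, 2 with the replicate block, 1 with thinned counts and 5 at an unadjusted p. For the difference between schedules, 0 became 1 in liver with upper quartile scaling, with DESeq2 and without a filter, 2 at an unadjusted p, and 1 in kidney at an unadjusted p. Between organs, 23 of 24 and 24 of 26 became 10 of 10 and 13 of 13 with at least 10 counts in every library. Of all genes, 7041 of 10810 and 7340 of 11005 were called there. The family counts were 27 and 25 with DESeq2 and 27 and 26 without a filter, of 31 tested in each. Leaving out 1 library gave 0 to 0, 1 to 6, 0 to 1 and 0 to 2 for the 4 NMN comparisons, 0 to 1 and 0 to 0 for the schedules, and 24 to 26 and 24 to 25 for the organs. Over all genes the NMN comparisons then gave 0 to 18, 211 to 1308, 5 to 67 and 3 to 191. Where no cause is given, the cause was not tested.

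The log2 fold change turned sign for Ugt2b36 in liver at 2680 mg/kg/d with upper quartile scaling (-0.0465) and for Ugt3a2 in kidney at 2680 mg/kg/d with all 14 libraries in one fit (-0.00041). Leaving out 1 library gave both signs for Sult1a1 (-0.0690 to 0.132), Sult1d1 (-0.244 to 0.149) and Ugt2b36 (-0.122 to 0.0127) in liver at 1340 mg/kg/d, Ugt2b36 (-0.0936 to 0.0588) in liver at 2680, Sult1c2 (-0.187 to 0.0595) and Ugt3a2 (-0.0744 to 0.0627) in kidney at 1340, and Ugt2b38 (-0.367 to 0.0707), Ugt3a1 (-0.0617 to 0.330) and Ugt3a2 (-0.0769 to 0.0734) in kidney at 2680 mg/kg/d. None of these was called.

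Over all genes, the calls of 2, 883, 18 and 61 became 74, 1448, 159 and 236 with DESeq2, and 44, 1785, 269 and 514 without a filter. With the replicate block they were 16, 1153, 75 and 92. Same-numbered NMN and water libraries of an organ, which come from separate mice, had correlations of -0.131 to 0.239. Between liver and kidney of the water mice, all same-numbered pairs had positive correlations (0.0997 to 0.299). Liver and kidney libraries with different numbers had -0.299 to 0.207. The main tests, that between organs included, did not pair the samples by number. The labels do not say whether same-numbered libraries share a mouse or a day. With the replicate block, the organs differed in 23 and 25 genes of the families. Ugt1a1 in kidney had 2 to 96 counts per library at 1340 mg/kg/d and 4 to 247 at 2680 mg/kg/d.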
